A study of Mus musculus with 4 samples.

Results

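Basement membranes are thin sheets of extracellular matrix to which cells adhere. They are built from a laminin network and a type IV collagen network, which nidogens and the heparan sulfate proteoglycan perlecan connect, and cells bind them through integrins and dystroglycan. Fibroblasts are known to make many of these components, often for membranes that lie beneath neighbouring cells. The genes described here are 10 members of this set, taken as a list: the type IV collagen chain genes Col4a1, Col4a2 and Col4a5, the type XVIII collagen gene Col18a1, the laminin chain genes Lama4, Lamb1 and Lamc1, the nidogen genes Nid1 and Nid2, and the perlecan gene Hspg2. Each was found by its RefSeq entry, and the entry with the highest mean value was used where a gene had several. All 10 were present among the 27344 transcript entries, and 8 of the 10 were among the 14386 genes and unnamed entries with at least 1 RPKM in at least 1 library, which are called compared below. RPKM is the number of reads of an entry scaled by its transcript length and by the library's total reads. Lama4 and Nid2 did not reach 1 RPKM and are described from their reads.

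The libraries were made from MEFs, fibroblasts of the mouse embryo, that were either wild type (Mll1+/+) or labelled Mll1-/-, with the histone H3 lysine 4 methyltransferase gene Mll1 (Kmt2a) as the target. Cells received control solution or TNF, an inflammatory cytokine (10 ng/ml in the design text, another unit in the treatment protocol), and were harvested 4 hr later, so the groups were wild type with control solution, wild type with TNF, Mll1-/- with control solution and Mll1-/- with TNF. Both genotypes grew in the same serum-containing medium. Cells of 3 treatments were mixed for each group, which left 1 library a group and no spread between replicates, and the labels do not say whether the MEFs of a genotype came from 1 embryo or 1 clone. Every difference is therefore a description of 4 libraries, without a test, and the interval beside a fold is a 95% exact binomial (Clopper-Pearson) interval on reads that covers counting error only.

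The recovered library totals were 27728647 and 27977248 reads for wild type without and with TNF, and 20081869 and 19306506 reads for those labelled Mll1-/-. Kmt2a itself was at 1.85 RPKM in wild type and 2.02 in the library labelled Mll1-/- without TNF, and at 2.11 and 1.66 with TNF, so it was lower under that label in the TNF pair alone. These are values over a whole transcript, and the labels do not say which part of the gene was altered, so they do not check the label. All 4 TNF-response genes looked at (Nfkbia, Tnfaip3, Ccl2 and Cxcl1) were higher with TNF under both labels. Of 6 fibroblast markers measured, 5 were higher past a 2-fold difference in the library labelled Mll1-/- without TNF, where 7.11% of all genes compared were higher, and Dcn, a defining fibroblast proteoglycan, had 0 reads in both wild-type libraries against 347 and 554 reads in the others. Vim lay between 2097 and 2418 RPKM in all 4. Markers of other cells that lay down basement membrane were low: the summed level of 5 endothelial markers was between 0.172 and 0.897 RPKM, and that of 6 epithelial markers between 0.765 and 1.04, and 2 macrophage markers summed to at most 0.173. The summed level of 7 smooth muscle and pericyte markers, mostly Acta2, was 125 and 109 RPKM in wild type and 213 and 216 in the libraries labelled Mll1-/-. Of the 5 compared, 1 was higher past the 2-fold difference (Des) and 1 lower (Cspg4) without TNF, and 2 were higher (Des and Acta2) and 1 lower (Cspg4) with TNF. Their part in the results below was not tested.

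The basement membrane genes differed between the genotypes in both directions. Lamb1, Lamc1, Nid1, Hspg2 and Col18a1 were higher in the libraries labelled Mll1-/-, the paired collagen genes Col4a1 and Col4a2 were lower, and Col4a5 was nearly level. Nid2 was lower at very low levels, and Lama4 was near 0 in all 4 libraries. Among the 8 genes compared the largest differences were those of Lamc1 and Col18a1, and both exceeded 2-fold with and without TNF. In bulk RNA, fewer cells that express a gene and less of its RNA per cell cannot be told apart.

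Col4a1 and Col4a2 encode the α1 and α2 chains that form the collagen IV trimers found in nearly all basement membranes. They lie head to head, and in the RefSeq and GENCODE annotation of GRCm38 their first exons share 22 bases. This stretch of chr8:11312801-11312830 on the plus strand is shown because the pair moved in the same direction. Capitals mark the bases that lie in both first exons, read as Col4a2:

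Col4a1 and Col4a2 starts: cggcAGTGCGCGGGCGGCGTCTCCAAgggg

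The Col4a1 level was 80.4 RPKM without and 78.7 with TNF in wild type, against 51.3 and 46.8 RPKM in the libraries labelled Mll1-/-. Both libraries labelled Mll1-/- lay below both wild-type libraries. For how many of all genes compared the values separate in this way was not computed. Nothing particular to the set was read from such separation, here or for the genes below. Col4a1 was 1.57-fold lower without TNF (counting interval 1.52 to 1.61) and 1.68-fold lower with TNF (1.63 to 1.73). Col4a2 followed at lower levels, with 42.3 and 41.0 RPKM in wild type and 30.2 and 29.6 in the libraries labelled Mll1-/-, and its ranges again did not overlap. It was 1.40-fold lower without TNF (1.35 to 1.46) and 1.38-fold lower with it (1.33 to 1.44). The ratio of Col4a1 to Col4a2 RPKM was 1.90 and 1.92 in the wild-type libraries, and 1.70 (1.63 to 1.77) and 1.58 (1.52 to 1.65) in those labelled Mll1-/-, so Col4a1 had the larger deficit. Neither gene passed the size rule used here, a log2 ratio of (RPKM + 0.5) of 1 or more in size, and the log2 ratios were -0.64 and -0.48 without TNF.

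Col4a5 encodes the α5 chain, which joins other trimers of more restricted membranes and is mutated in Alport kidney disease. Its 4 values lay between 11.9 and 13.9 RPKM, with 13.0 in wild type against 13.9 in the library labelled Mll1-/- (1.07-fold, counting interval 1.01 to 1.14). The values of the genotypes overlapped. The 3 collagen IV genes together made up 51.6% and 48.5% of the summed RPKM of the 10 genes in the wild-type libraries and 30.5% and 29.1% in those labelled Mll1-/-. The other collagen IV chain genes were close to 0: Col4a3 had at most 10 reads in any library, Col4a4 at most 1 and Col4a6, which neighbours Col4a5, at most 8.

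Col18a1 encodes the collagen whose carboxy-terminal fragment is the vessel inhibitor endostatin. Its level was 23.7 and 24.7 RPKM in wild type and 57.8 and 61.3 in the libraries labelled Mll1-/-, where it was the second most abundant of the 10 genes. The groups were far apart relative to the counting intervals: 2.44-fold higher without TNF (2.34 to 2.55) and 2.48-fold higher with TNF (2.38 to 2.59), or log2 1.27 and 1.29. The file holds a shorter entry of 5058 bases, used here, and a longer one of 5642 bases that starts at a separate downstream promoter. The longer entry had fewer reads than the shorter in every library (3268, 3430, 5783 and 5865 against 3326, 3497, 5876 and 5983). The counts of the entries were nearly equal, and the file does not say which promoter the reads came from.

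The promoter sequences of Col18a1, Lamb1 and Col4a5 are printed to set a gene with a large, a small and almost no genotype difference side by side. They are RefSeq windows on GRCm38.p6, cut before the first annotated exonic base, and capitals mark the GC box GGGCGG on either strand. Col18a1 is the upstream promoter at chr10:77166549-77166780 on the minus strand, Lamb1 lies at chr12:31265043-31265233 on the plus strand, and Col4a5 lies at chrX:141475169-141475384 on the plus strand:

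Col18a1: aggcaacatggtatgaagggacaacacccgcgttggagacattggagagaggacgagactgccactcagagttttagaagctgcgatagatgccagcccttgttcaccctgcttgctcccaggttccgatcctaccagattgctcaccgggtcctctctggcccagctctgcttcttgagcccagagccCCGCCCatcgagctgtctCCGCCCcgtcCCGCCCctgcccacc

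Lamb1: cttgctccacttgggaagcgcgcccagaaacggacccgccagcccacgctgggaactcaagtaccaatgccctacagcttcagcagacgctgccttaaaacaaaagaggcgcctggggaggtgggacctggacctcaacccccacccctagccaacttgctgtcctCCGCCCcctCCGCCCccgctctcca

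Col4a5: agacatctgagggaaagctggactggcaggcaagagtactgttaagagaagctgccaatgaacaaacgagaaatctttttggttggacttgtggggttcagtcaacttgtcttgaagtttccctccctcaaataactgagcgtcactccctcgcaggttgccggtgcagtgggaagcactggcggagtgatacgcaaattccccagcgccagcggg

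The Col18a1 stretch held 3 GC boxes, the Lamb1 stretch 2 and the Col4a5 stretch 0. RefSeq windows of 300 bases (250 before and 50 after the start) were found for 7 of the 10 genes, and not for Lama4, Lamc1 and Nid2. Mll1 is known to bind unmethylated CpG through its CXXC domain, and no binding was measured here. The Col4a1 and Col4a2 windows, which overlap, held 37 and 33 CpG, followed by Hspg2 with 27, Nid1 with 20, Lamb1 with 18, the upstream Col18a1 promoter with 16, Col4a5 with 11 and the downstream Col18a1 promoter with 6. Over all 32851 windows the median was 7, with quartiles of 3 and 20. A GC box was found in every one of these windows except the downstream Col18a1 promoter, and in 35.7% of all windows. By count, the windows held 5 (Hspg2), 3 (Col4a2 and the upstream Col18a1 promoter), 2 (Lamb1) and 1 (Col4a1, Nid1 and Col4a5). This order was unlike that of the genotype ratios of the same 7 genes, which leave out Lamc1, and a link was not tested. The CCAAT box (CCAAT, either strand) matched in all of these windows except Hspg2 and the downstream Col18a1 promoter, against 37.4% of all windows. The TATA box (TATAAA, 13.6% of all windows) and the NF-kB consensus site (5.80% of all windows) matched in none of them. The set of all windows was not limited to genes compared, whereas the 7 genes were all compared, so the shares are not matched for level. These are counts of letters in short windows and say nothing of binding in these cells.

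The laminins are trimers of an α, a β and a γ chain. Lamb1 and Lamc1 encode the β1 and γ1 chains, which most laminins of mesenchymal tissues contain, and Lama4 encodes an α chain of vessel and muscle membranes. Lamb1 stood at 50.1 and 56.1 RPKM in wild type and at 65.7 and 69.7 in the libraries labelled Mll1-/-. It was 1.31-fold higher there without TNF (1.27 to 1.35) and 1.24-fold higher with TNF (1.20 to 1.28), with no overlap of the values.

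Lamc1 showed the largest difference without TNF of the 8 genes compared. It stood at 14.7 and 17.4 RPKM in wild type and at 38.0 and 35.8 in the libraries labelled Mll1-/-, 2.58-fold higher without TNF (2.47 to 2.70) and 2.06-fold higher with it (1.97 to 2.14). In log2 ratios of (RPKM + 0.5) these were 1.34 and 1.02. The values of the genotypes did not overlap. The ratio of Lamb1 to Lamc1 RPKM was 3.40 and 3.22 in wild type and 1.73 and 1.95 in the libraries labelled Mll1-/-. The RNA levels of Lamb1 and Lamc1 were thus nearer each other in the latter.

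Lama4 was not detected beyond 1 read: 0 and 1 reads in the wild-type libraries and 0 and 0 in those labelled Mll1-/-. A count of 0 allows up to 3 reads, or between 0.0191 and 0.0274 RPKM for this transcript in the 3 libraries at 0, and no fold is given. Among the other α chain genes, Lama5, whose chain is found in many epithelial and vessel membranes, had 5.20 and 5.44 RPKM in wild type and 17.2 and 17.3 in the libraries labelled Mll1-/-. It was 3.30-fold higher without TNF (3.11 to 3.50) and 3.19-fold higher with TNF (3.01 to 3.37). Lama2 had at most 5 reads and Lama3 at most 33 reads in any library, and Lama1 was not analysed here.

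**Figure D1:**
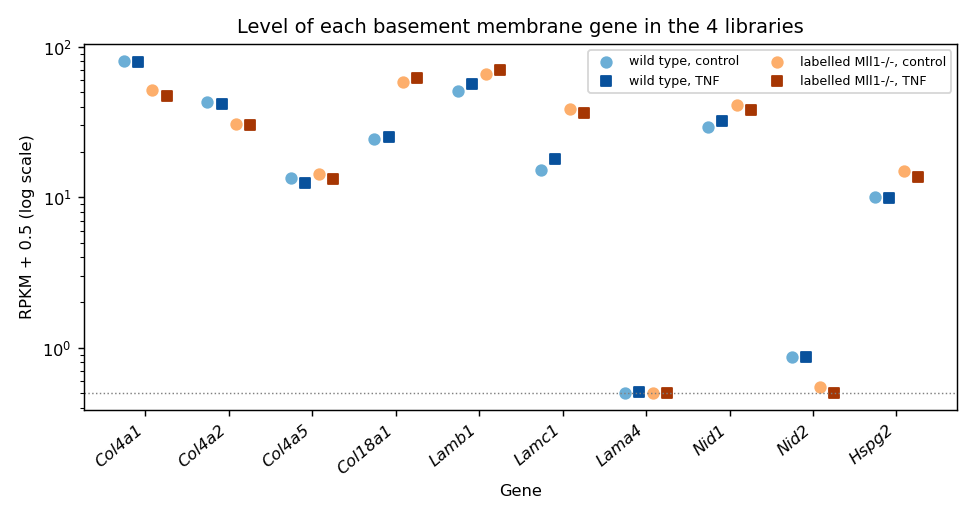
Level of each of the 10 genes in the 4 libraries, as RPKM + 0.5 on a log axis, with 1 point a library (circles, control; squares, TNF; blue, wild type; orange, labelled Mll1-/-); the dotted line marks 0 RPKM. Col4a1 and Col4a2 are lower and Col18a1, Lamb1, Lamc1, Nid1 and Hspg2 higher in the libraries labelled Mll1-/-, while Lama4 lies on the line in all 4.

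Nidogens are the linker proteins of the membrane, and nidogen-1 binds the γ1 laminin chain and collagen IV. Nid1 stood at 28.6 and 31.5 RPKM in wild type and at 40.7 and 37.3 in the libraries labelled Mll1-/-. It was 1.42-fold higher without TNF (1.36 to 1.48) and 1.19-fold higher with TNF (1.14 to 1.23), and the values did not overlap. The ratio of Nid1 to Lamc1 RPKM went from 1.94 and 1.81 in wild type to 1.07 and 1.04 in the libraries labelled Mll1-/-.

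Nid2, the second nidogen, had the largest fold of the 10 genes, at levels far below the rest. It had 51 reads in each wild-type library (0.374 and 0.371 RPKM), 5 reads in the library labelled Mll1-/- without TNF (0.0507 RPKM) and 0 with TNF. The wild-type libraries were the higher in both pairs: 7.39-fold lower in the library labelled Mll1-/- without TNF (counting interval 2.97 to 23.7), and at least 11.7-fold lower with TNF when the 0 is taken as 3 reads in that library, before counting error in the 51 wild-type reads is allowed for (the counting interval starts at 9.20-fold). In GENCODE M21 Nid2 exons overlap those of Rtraf on the opposite strand over 437 bases. The labels do not mention strand, so reads of the 2 genes cannot be told apart there. Rtraf stood at 139 and 135 RPKM in wild type and at 56.5 and 65.1 in the libraries labelled Mll1-/-, a lower level in the same pairs, and its part in the Nid2 values was not tested. Exons of other genes overlapped those of Col4a2 (43 bases of Gm15419) and Nid1 (143 bases of Gm48682) far less, and none overlapped those of Lamb1, Lamc1, Col18a1 or Hspg2.

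Hspg2 encodes perlecan, the large proteoglycan whose heparan sulfate chains hold growth factors in the membrane. Its level was 9.51 and 9.45 RPKM in wild type and 14.5 and 13.1 in the libraries labelled Mll1-/-. It was 1.52-fold higher without TNF (1.45 to 1.59) and 1.39-fold higher with TNF (1.33 to 1.45), and the groups were apart. In those libraries Hspg2 and Col4a5 could not be ordered beyond counting error (ratio 1.04, interval 0.985 to 1.10, without TNF), whereas in wild type Hspg2 was the lower (0.733, 0.696 to 0.773).

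The order of levels was therefore different under the 2 labels and the same within each. In both wild-type libraries it ran Col4a1, Lamb1, Col4a2, Nid1, Col18a1, Lamc1, Col4a5, Hspg2, Nid2 and Lama4. In both libraries labelled Mll1-/- it ran Lamb1, Col18a1, Col4a1, Nid1, Lamc1 and Col4a2, then Hspg2 and Col4a5, which could not be ordered, with Nid2 and Lama4 at or near 0. The ratio of Col18a1 to Col4a1 RPKM was 0.295 and 0.314 in wild type and 1.13 and 1.31 in the libraries labelled Mll1-/-. The summed RPKM of the 10 genes moved less, from 263 and 271 to 312 and 306. Among all genes compared, Lamc1 moved from the 56.2 percentile of the wild-type control library to the 78.0 percentile of the library labelled Mll1-/- without TNF, Col18a1 from 67.3 to 84.1, and Col4a1 from 86.3 to 82.5.

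**Figure D2:**
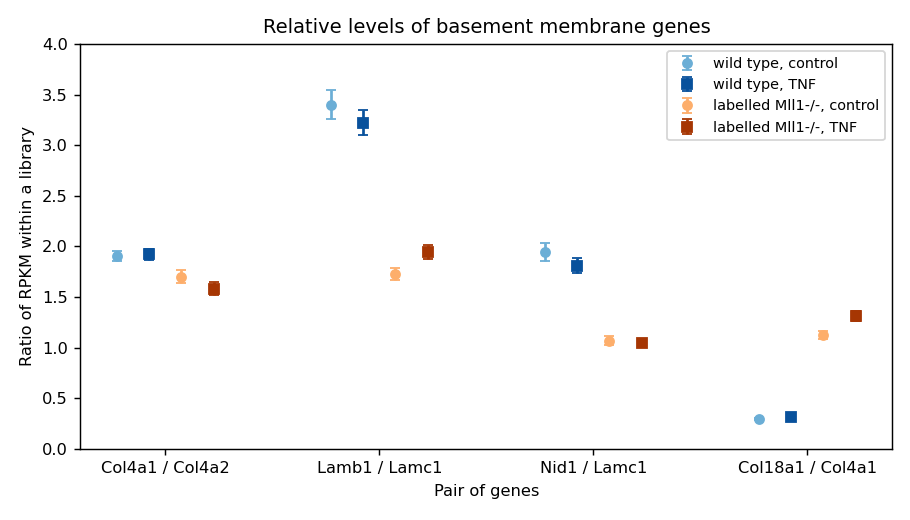
Ratio of RPKM between pairs of genes within each library (axis from 0), with 95% counting intervals and 1 point a library. The ratios Lamb1 to Lamc1 and Nid1 to Lamc1 are lower in both libraries labelled Mll1-/- (1.73 and 1.95, and 1.07 and 1.04), and that of Col18a1 to Col4a1 is higher (1.13 and 1.31).

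Counted by the size rule, 2 of the 8 genes compared were higher in the library labelled Mll1-/- without TNF and 0 were lower, where 7.11% of all genes compared were higher and 7.99% lower. With TNF the same 2 genes, Col18a1 and Lamc1, were higher and 0 lower, against 6.71% and 4.5% of all genes. The counts rest on 2 genes, and nothing particular to the set was read from them. The median log2 ratio of the 8 was 0.44 without TNF and 0.28 with TNF, beside medians over all genes of -0.07 and -0.05. All 8 counting intervals excluded a ratio of 1 without TNF, and 7 did with TNF, Col4a5 being the exception. The same share over all genes was not computed. At these read counts even the 1.07-fold ratio of Col4a5 without TNF excluded 1, so nothing particular to the set was read from the intervals either.

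**Figure D3:**
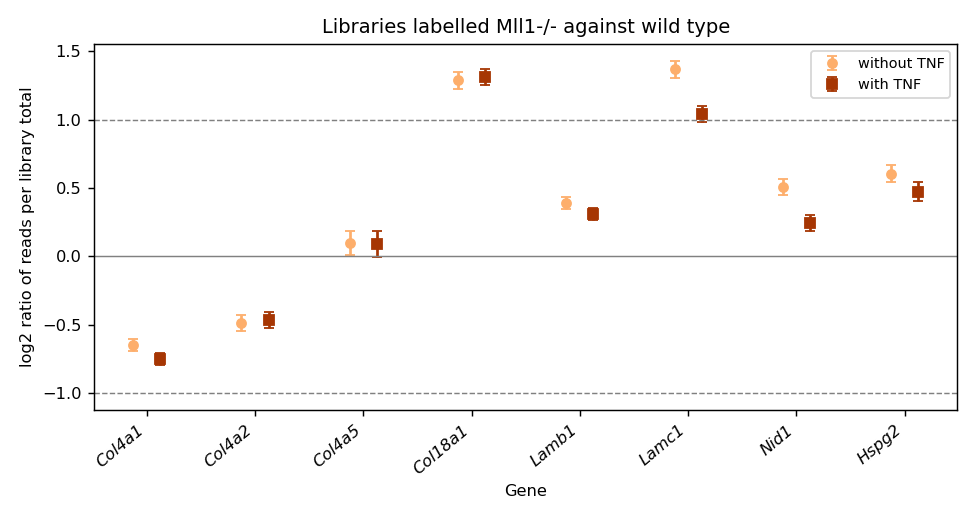
Log2 ratio of reads per library total, labelled Mll1-/- against wild type, for the 8 genes compared, without TNF (circles) and with TNF (squares); bars are 95% counting intervals and dashed lines mark a 2-fold difference. Col18a1 and Lamc1 lie above the upper dashed line in both pairs, Col4a1 and Col4a2 lie below 0, and Col4a5 lies next to 0.

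Transcript length moved with the genotype ratio and bears on this set, whose compared transcripts are between 5058 and 14201 bases long. Without TNF the median log2 ratio of all genes went from -0.53 in the shortest decile of transcripts to 0.26 in the longest, and with TNF from -0.18 to 0.02. Among the 1666 genes in the length range of the members, the median was 0.24 without TNF, with 9.42% higher and 3.78% lower past the size rule. With TNF the median there was 0.02, with 6.96% higher and 4.2% lower. With the length trend removed, Col18a1 stood at 1.10 and 1.29, and Lamc1 at 1.08 without TNF and just under the size rule with it. Hspg2 (0.22 without TNF), Nid1 (0.28) and Lamb1 (0.19) kept their direction without TNF at a smaller size, and Col4a5 turned from 0.09 to -0.13. Col4a1 (-0.88) and Col4a2 (-0.71) were further below 0 than before correction.

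**Figure D4:**
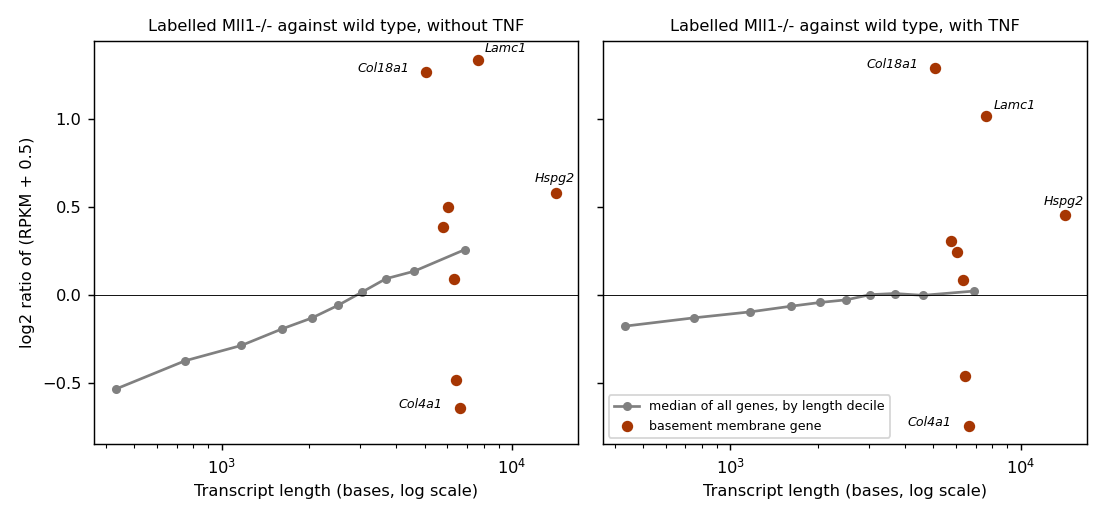
Log2 ratio of (RPKM + 0.5), labelled Mll1-/- against wild type, against transcript length on a log axis, without TNF (left) and with TNF (right); grey points are medians of all genes compared in deciles of length, and orange points the 8 genes compared. The grey line climbs from -0.53 to 0.26 on the left and from -0.18 to 0.02 on the right.

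The TNF ratios of the basement membrane genes were small under either label, as were those of most genes compared. None of the 8 genes compared passed the size rule in wild type (0.521% of all genes were higher and 0.0556% lower, 0.577% in all) or in the cells labelled Mll1-/- (0.688% and 0.16%, 0.848% in all). In the members' length range 0.18% of genes were higher in wild type. With shares this small, nothing particular to the set was read from the absence of calls. In wild type the log2 ratios lay between -0.12 and 0.23, with a median of 0.03. The highest were those of the laminin and nidogen genes: Lamc1 was 1.18-fold higher with TNF (1.13 to 1.24), Lamb1 1.12-fold (1.09 to 1.16) and Nid1 1.10-fold (1.06 to 1.14). Col4a5 was 1.09-fold lower (1.03 to 1.16), and the intervals of Col4a1, Col4a2, Col18a1 and Hspg2 included 1.

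In the cells labelled Mll1-/-, the log2 ratios of the 8 lay between -0.13 and 0.08 with a median of -0.10. Lamb1 (1.06-fold, 1.03 to 1.10) and Col18a1 (1.06-fold, 1.02 to 1.10) were the 2 above 0, although both lay below 0 (-0.08 each) when the 20 most abundant genes were left out of the scaling. Col4a1, Hspg2 and Col4a5 were each 1.10-fold lower, Nid1 1.09-fold lower (1.05 to 1.13) and Lamc1 1.06-fold lower (1.02 to 1.10). These small values move with the length trend, since the 1666 genes in the members' length range had a median of -0.19 in this comparison, and with the trend removed all 8 lay above 0 with a median of 0.14. Col4a2 had an interval that included 1.

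**Figure D5:**
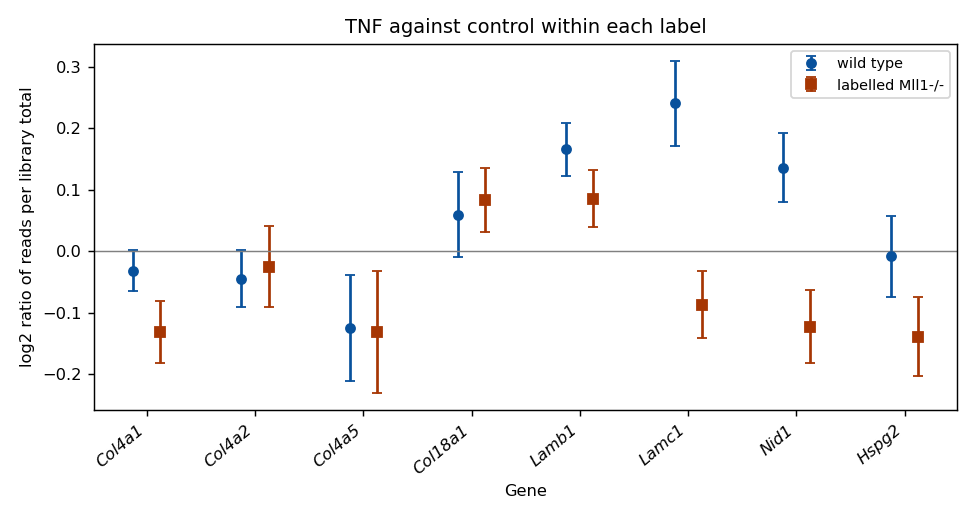
Log2 ratio of reads per library total, TNF against control, in wild type (circles) and in cells labelled Mll1-/- (squares), for the 8 genes compared; bars are 95% counting intervals. All points lie within 0.25 of 0, and Lamc1 and Nid1 lie above 0 in wild type and below 0 in the cells labelled Mll1-/-.

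The difference between the log2 TNF ratios (labelled Mll1-/- minus wild type) was past 1 in size for 0 of the 8 genes, against 0.758% of all genes upward and 0.424% downward (0.06% downward in the members' length range). It was lowest for Lamc1 (-0.32) and Nid1 (-0.26), and the others lay between -0.13 and 0.02. With the length trend removed, Lamc1 stood at -0.08 and Nid1 at -0.06. Nid2 had 51 reads with and without TNF in wild type, and its 5 and 0 reads in the other cells were too few for a TNF ratio (the interval reached from 0 to 1.14).

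Genes that act with these components were taken from fixed lists, and each list was counted by the same size rule without TNF, where 7.11% of all genes compared were higher and 7.99% lower. Of 12 other chain genes measured, 5 were compared, 1 was higher in the library labelled Mll1-/- and 0 lower. Lama5 was the highest, followed by the agrin gene Agrn (1.61 against 1.89 RPKM), and the laminin γ chain gene Lamc3 (1.34 against 0.663) was the lowest. Of 7 compared genes for membrane-associated proteins, 0 were higher and 1 lower, Tinagl1, whose product binds laminin and integrins (61.9 against 24.9 RPKM). Fbln2, a fibulin that binds nidogen and perlecan, was next lowest (161 against 98.4), and Fbln1 (8.06 against 13.3) and the netrin gene Ntn1 (1.79 against 2.46) were highest. Ntn1, a guidance cue related to laminin, was the 1 gene of these lists past the size rule with TNF: 1.79 to 4.84 RPKM in wild type (2.71-fold, 2.37 to 3.12) and 2.46 to 3.61 in the cells labelled Mll1-/- (1.47-fold, 1.26 to 1.72).

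Enzymes that modify collagen IV gave 1 higher and 1 lower of 15 genes compared, near the shares of all genes (7.11% and 7.99%). The crosslinking oxidase gene Loxl2 went from 5.43 RPKM in wild type to 17.7 in the library labelled Mll1-/- (3.26-fold, 2.99 to 3.55). Plod3, whose product hydroxylates and glycosylates collagen lysines, went from 52.7 to 23.0 RPKM (2.29-fold lower, 2.16 to 2.42). Pxdn, the peroxidase that forms the sulfilimine crosslinks of collagen IV (14.5 against 20.2 RPKM), and the prolyl hydroxylase subunit gene P4hb (442 against 310) completed the extremes. Of 11 compared genes for heparan sulfate synthesis and editing, 1 was higher and 0 lower, beside the same 7.11% and 7.99%. The extracellular sulfatase gene Sulf1 was at 3.40 against 53.6 RPKM (15.7-fold, 14.3 to 17.4), followed by the polymerase gene Ext1 (34.5 against 66.2), and the sulfotransferase genes Ndst2 (6.75 against 5.12) and Hs6st1 (8.10 against 6.46) were lowest.

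Among 7 compared receptor genes 1 was higher and 0 lower, against 7.11% and 7.99% of all genes. Itga3, whose integrin binds laminins with the α5 chain, went from 22.2 to 56.1 RPKM (2.53-fold, 2.42 to 2.64), Itgb1, its partner, from 163 to 258, while Cd151 (127 against 99.3) and Ddr1 (8.68 against 6.89) were lowest. Among 9 proteases that cut or release membrane components 3 were higher and 2 lower, against those same shares of 7.11% and 7.99%. The stromelysin gene Mmp3 had 2 reads in wild type and 932 in the library labelled Mll1-/- (643-fold, counting interval 178 to 5321), and the serine protease gene Htra1 stood at 1.09 against 24.0 RPKM. The collagen IV-degrading gelatinase gene Mmp2 went the other way, from 48.3 to 0.406 RPKM (119-fold lower, 80.6 to 184), as did the procollagen protease gene Bmp1 (16.9 against 8.07).

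By likeness of pattern, each gene was set against 9257 named genes (9258 for Nid2) with at least 3 RPKM in their highest library. The measure was the distance between log2(RPKM + 0.5) values centred over the 4 libraries, where 0 means the same pattern. The genes nearest to Col4a1 were Lrsam1 (0.018), Gars (0.028) and Prkd3 (0.030), and those nearest to Hspg2 were Incenp (0.018), Hp1bp3 (0.019) and Heg1 (0.027). Nid2 lay nearest to Jade3 (0.018), Isoc1 (0.023) and Lrsam1 (0.027), although its own pattern is flattened by the pseudocount. Col4a1 was the 6th nearest to Nid2, and no member was among the 3 nearest genes named here. Col18a1 was the 36th nearest to Lamc1, Nid1 the 220th nearest to Lamb1 and Col4a2 the 436th nearest to Col4a1, and with 4 libraries many unrelated genes come as close.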

How the data were processed

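The labels' protocols describe total RNA from a spin-column kit, mRNA purification and fragmentation, and adapter-ligated cDNA. The submitters' processing notes name TopHat and DESeq, with no role. The build, annotation and counting program were not given in the sources used here. Deposited by the authors was 1 RPKM value per RefSeq transcript entry and library, for 27344 entries. Entries were named through a RefSeq gene table on GRCm38.p6 (20849) or GENCODE M21 metadata (102), and 6393 stayed unnamed.

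Library totals, transcript lengths and whole reads were recovered from the steps of the RPKM values. With these totals, a single length gave whole reads in all 4 libraries for every entry (within 0.01 reads). Where lengths fit a GENCODE length only after multiplication, they were multiplied (581 entries, Col4a1 among them), and elsewhere reads are lower bounds. Of the 20661 entries with a GENCODE length, 75.9% had a recovered length within 10% of it. Reads summed over all entries exceeded the recovered total in each library (47868865 against 27728647 in wild type without TNF). Code was tested on simulated data.

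Ratios are of log2(RPKM + 0.5) over 14386 genes and unnamed entries with at least 1 RPKM in 1 library, and the size rule is a log2 ratio of 1. Length trends were fitted by lowess (fraction 0.3, statsmodels 0.14.6). The members and lists were chosen with earlier results of these data known. All 10 members are named, and of each other list the 2 highest and 2 lowest genes without TNF, genes past the size rule with TNF, the 3 genes nearest to Col4a1, Nid2 and Hspg2, and single chains or markers at low counts. The values of 1 gene that this rule names are not reported here. Alternatives were other pseudocounts, filters, scalings, entries and size rules.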

Additional observations from a re-analysis of the deposited data

Results flagged for a closer look

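Lamc1 and Nid1 had TNF ratios of opposite direction under the 2 labels, with counting intervals that excluded 1 in each. For Lamc1 the level was 1.18-fold higher with TNF in wild type and 1.06-fold lower in the cells labelled Mll1-/-, a difference of -0.32 in log2 ratio. For Nid1 it was 1.10-fold higher and 1.09-fold lower, a difference of -0.26. With 1 library a group the difference between the genotypes was not tested. With the trend of the ratio with transcript length removed, the differences were -0.08 and -0.06, and both genes lay above 0 in the cells labelled Mll1-/- as well (0.12 and 0.05).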

How the results depend on the processing

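The genotype ratios of Col4a1, Col4a2, Col18a1, Lamb1, Lamc1, Nid1 and Hspg2 kept their signs with and without TNF under all 11 alternatives. The Col4a5 ratio without TNF ranged from -0.13 to 0.38. Sizes without TNF moved beyond the counting intervals, with log2 ratios from -0.88 to -0.35 for Col4a1. The range was -0.71 to -0.18 for Col4a2 and 0.22 to 0.87 for Hspg2. Some of the sameness of signs was fixed in advance. A change of size rule or of filter leaves the ratio of a gene as it is. The other choices of entry cannot alter genes with a single entry, which are all those named but Col18a1 and Col4a5. The count of 2 genes past the size rule with TNF became 1 with a pseudocount of 1 RPKM and 1 with the length trend removed, Lamc1 being the gene lost. With a size rule of 0.58 the count was 3 both without and with TNF, 2 higher and 1 lower, Col4a1 being the lower gene. Where the median log2 ratio moved by more than the typical counting error of a member, it was 0.44 without TNF as reported and 0.24 with no filter on low values, 0.52 with median-ratio scaling, 0.55 with upper-quartile scaling, 0.74 without the 20 most abundant genes in the scaling and 0.20 with the length trend removed. With TNF it was 0.28 as reported, 0.17 with no filter and 0.38 without the 20 most abundant genes. For TNF in the cells labelled Mll1-/- it was -0.10 as reported, -0.18 with upper-quartile scaling, -0.27 without the 20 most abundant genes and 0.14 with the length trend removed. For the difference in response it was -0.09 as reported, -0.18, -0.28 and 0.14 under the same 3 alternatives. Scaling without the 20 most abundant genes shifts the median of all genes by 0.29 in the genotype ratio without TNF, by 0.11 with TNF and by -0.16 in the TNF ratio of the cells labelled Mll1-/-. Nid2 depends on the pseudocount, with -0.67 without TNF as reported and -2.89 from reads. The share of genes past the size rule in the members' length range was added after seeing the data. No paired analysis was possible because each group is 1 library.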

Other observations

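A fixed list held genes chosen as markers of the parietal endoderm of the yolk sac, a tissue known for its thick basement membrane. Among the transcription factor genes of that list, 2 had reads under 1 label alone. The share of all genes with reads under 1 label alone was not computed, so nothing particular to the list was read from this count. Gata6 had 239 and 254 reads in the wild-type libraries and 0 in both libraries labelled Mll1-/-. Foxa2 had 0 reads in both wild-type libraries and 65 and 46 in those labelled Mll1-/-. Gata4 differed less, at 178 and 183 reads in wild type against 102 and 98 reads in the other libraries. Sox7 and Afp, on the same list, had at most 10 and at most 7 reads in any library. Whether the genes of this list are particular to that cell type was not tested.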
